A study of Mus musculus with 6 samples.

Results

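Transcription factors bind DNA at short sequence motifs and raise or lower the transcription of nearby genes. The 25 rows described here are those of the deposited colon table whose functional annotation carries the Gene Ontology term for sequence-specific DNA-binding transcription factor activity, without the Hox and Evx genes and without Isx, Cdx2, Osr2, Nr1h4, Pparg and Tbx21. The table holds 2033 rows, of which 962 carry any Gene Ontology annotation and 31 carry this term (6 of them left out by name), so that factors the file does not annotate are not members. RNA was sequenced from the colon of 2 groups of mice with 3 libraries each. One group had been exposed over the long term to PFOA (perfluorooctanoic acid), an industrial surfactant that persists in the body, and the other was the control group. Neither the labels nor the design text give the strain, sex, age, dose, length of exposure or part of the colon for either group. Tissue of 6 mice a group was frozen according to the labels, but which mice entered which library is not said, and p-values here cover only library-to-library spread, which may be technical.

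In the gut, transcription factors set the identity of each segment and of each cell type. GATA factors act in gut endoderm and Onecut factors in the upper gut. Forkhead and bHLH factors act in secretory cells. TCF and LEF factors act at the end of the Wnt pathway that maintains the crypts, and nuclear receptors as sensors of lipids and hormones. PPAR-alpha, encoded by Ppara, is the nuclear receptor for fatty acids that PFOA is known to activate in rodent liver.

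The listed counts per library, which are not sequencing depths, ranged from 2136897 to 2269892 in PFOA and from 1771120 to 2155472 in control. All 1608 rows with enough counts for edgeR's quasi-likelihood test passed it (100% at an adjusted p under 0.05, with 50.0% higher and 50.0% lower in PFOA). A table in which every tested row differs is one of rows selected for a difference between these groups, by a rule that the sources used here do not state. A call for a member is therefore no evidence of an effect, and p-values below describe the rows only. On the second principal component of the listed rows, PFOA replicate 1 was away from its fellow libraries, at 23.5 against -11.7 and -12.8 for PFOA replicates 2 and 3. Colon epithelium markers were present in both groups, with the 7 rows of 5 goblet cell genes summing to between 148576 and 329472 CPM (counts relative to each library's listed counts after TMM adjustment, a scaling for library composition) in PFOA and between 143511 and 263122 CPM in control. These sums hide a split. The 3 Muc2 rows were higher in PFOA and the 4 rows of other goblet genes lower, from 2.06-fold for Tff3 to 5.42-fold for Clca1. The 5 enterocyte rows split too, with Car1 and Guca2a higher and Aqp4, Car4 and Slc26a3 lower. Rows of 5 of 9 T and natural killer cell markers were all higher in PFOA and summed to between 95.2 and 281 CPM there, against 31.5 to 63.9 CPM in control. Of the 4 listed adipocyte markers, Plin1 and Adipoq had 0 counts in PFOA replicate 2, and the 4 rows summed to between 69.2 and 520 CPM in PFOA and between 9.52 and 37.7 CPM in control. The 7 B cell and 8 myeloid markers had no row. The part of these cell types in the results below was not tested.

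Of the 25 transcription factor rows, 22 had enough counts to be tested, and 10 were higher and 12 lower in PFOA. That is 45.5% higher and 54.5% lower, close to the 50.0% of all tested rows in each direction. By mean level, 13 rows were higher and 12 lower, against 50.9% higher among all rows. The members' CPM values did not overlap between the groups in 25 of 25 rows, which also held for 97.1% of all rows. The median log2 fold change was 2.03 for the 10 higher members and 1.71 for all 804 higher rows, and it was -1.58 for the 12 lower members and -1.80 for all 804 lower rows. By family and mean level, nuclear receptors were higher in 2 of 2 rows, of which 1 was tested. Zinc finger factors were higher in 4 of 5 rows, with 3 of the 4 tested rows called higher. Ikzf2, among these 3, was high in a single library, as described below. TCF/LEF factors were lower in 2 of 2 rows, and bHLH factors split at 2 higher and 3 lower. Among the members, the single rows of SOX (Sox6), T-box (Tbx3) and ETS (Etv5) factors were higher, and those of forkhead (Foxa2) and bZIP (Fosb) factors were lower. The families do not end there, because rows without the term are not members. Among such rows, Etv4 (log2 fold change -2.32) and Tbx1 (-1.26) were lower, unlike Etv5 and Tbx3. Foxn1 (-3.95) was lower, like Foxa2. Nuclear receptor rows without the term went both ways, among them Nr1h5 (-1.90), lower, and Nr6a1 (1.04), higher, beside those given below. In whole tissue, fewer cells of a type and less RNA per cell cannot be told apart, and because the colon segment is not labelled, segment and exposure cannot be told apart either.

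**Figure D1:**
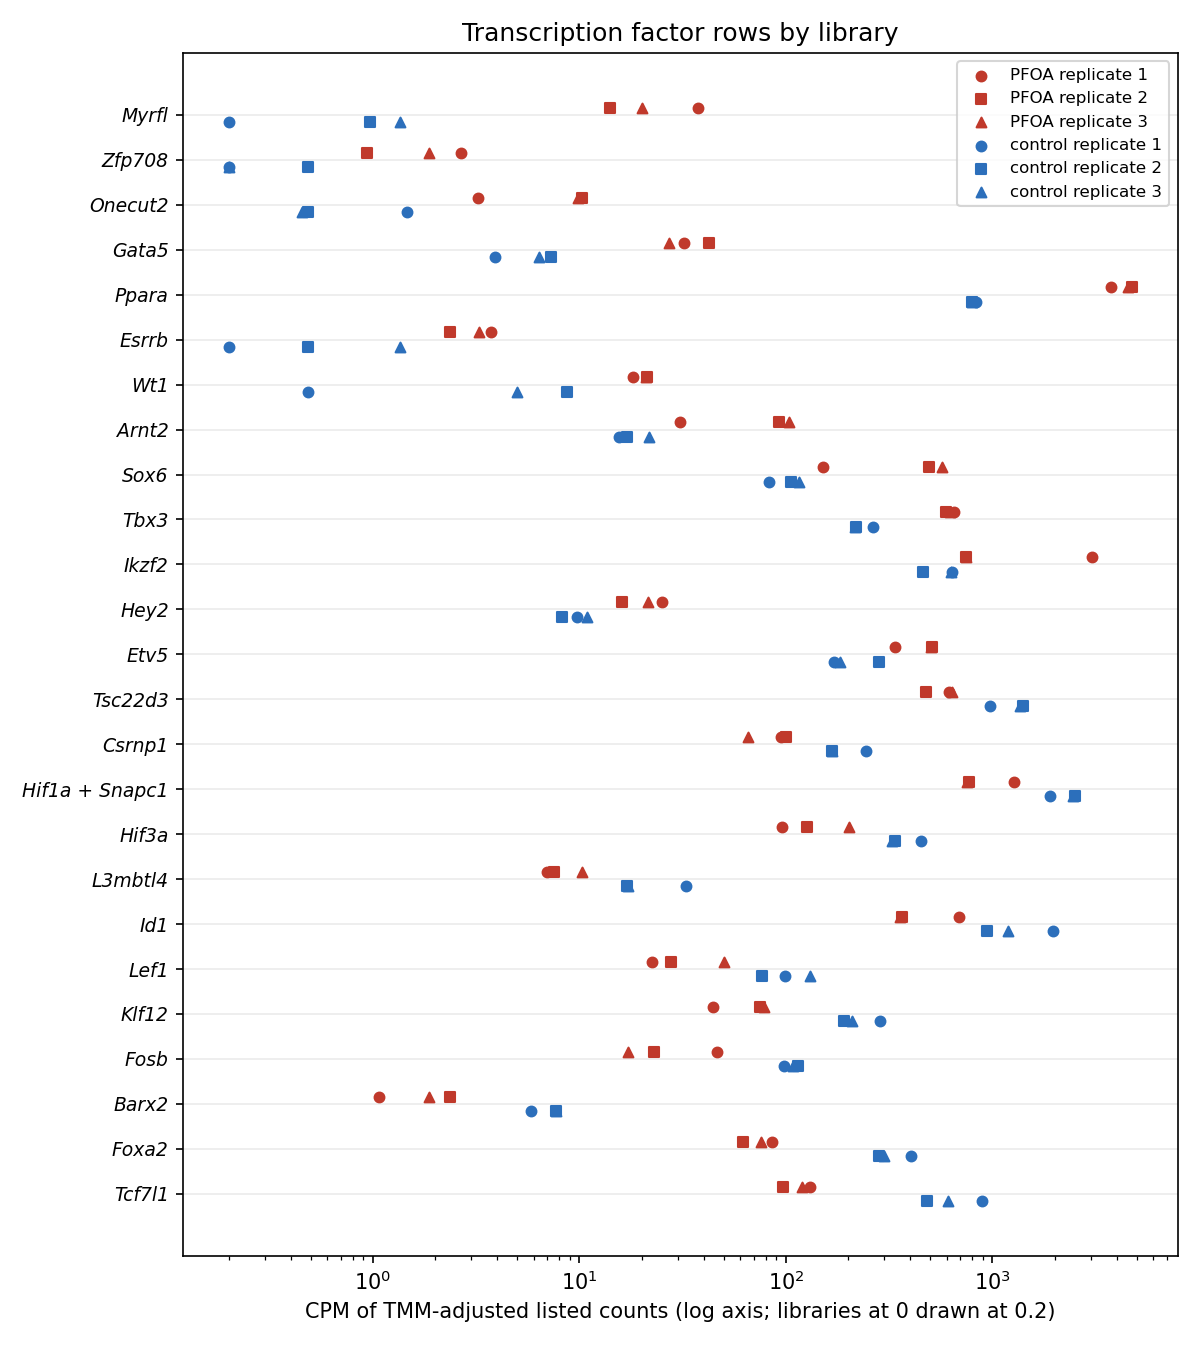
Level of each transcription factor row in CPM (horizontal log axis) in the 3 PFOA libraries (red, upper line of each row) and the 3 control libraries (blue, lower line), with marker shapes for the replicates and libraries at 0 drawn at 0.2. The groups are apart in 25 of 25 rows, and PFOA replicate 1 lies away from the other PFOA libraries for Ikzf2, Sox6, Arnt2 and Onecut2.

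**Figure D2:**
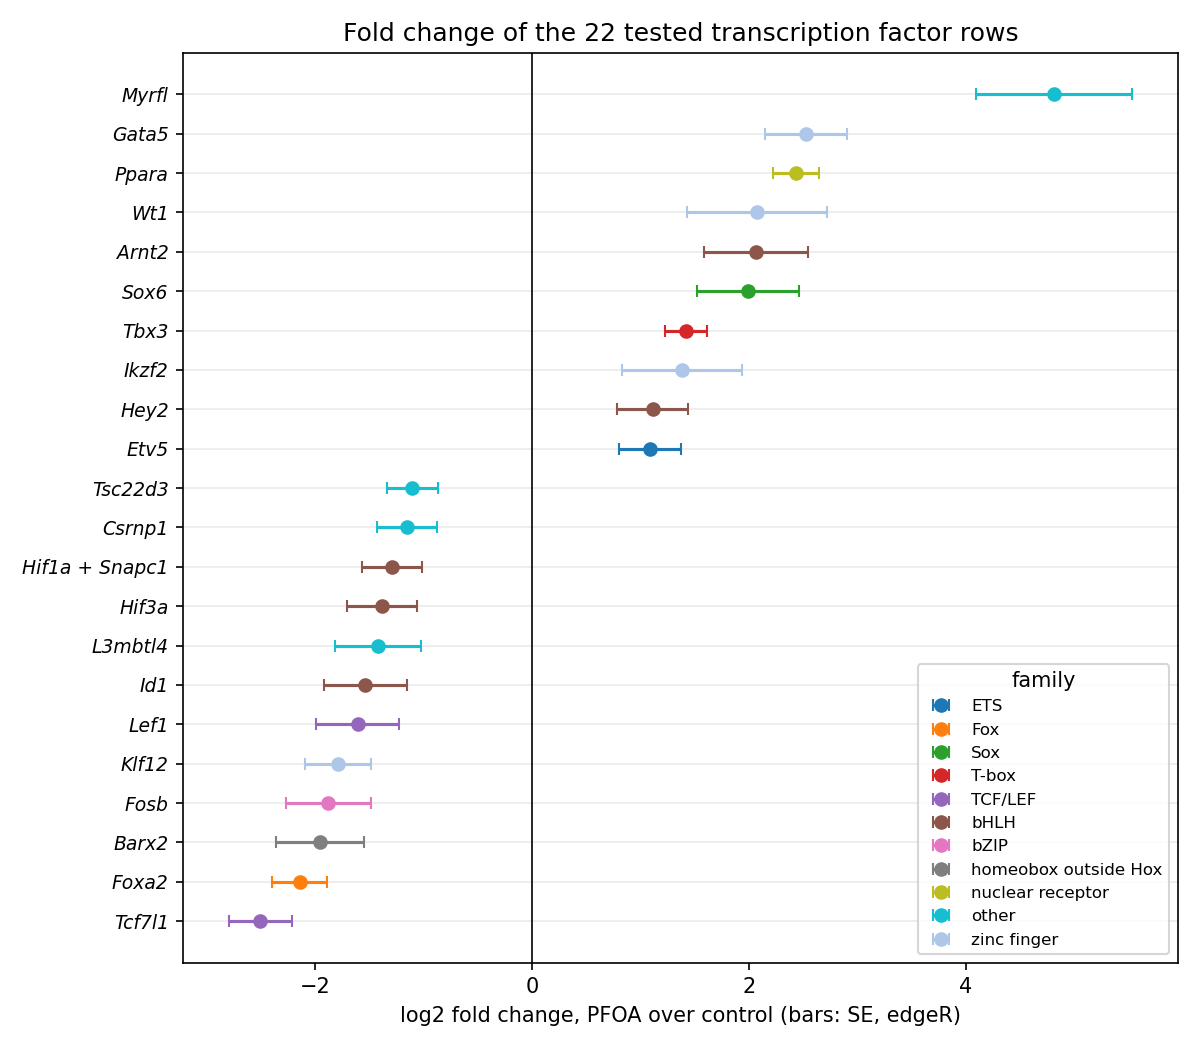
Log2 fold change of PFOA over control (horizontal axis) with its standard error (bars, edgeR) for the 22 tested rows, coloured by family. The values run from -2.51 for Tcf7l1 to 4.81 for Myrfl, with 10 rows above and 12 below 0.

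Ppara was the most abundant of these rows by raw count and was higher in PFOA. It had 7039, 10115 and 9728 counts in PFOA libraries, against 1708, 1643 and 1758 counts in control libraries. Each PFOA library lay far above each control library, and the control libraries lay close together. The level averaged 4358 ± 518 CPM in PFOA and 808 ± 21.2 CPM in control (SD, n = 3 each), a 5.39-fold difference (log2 fold change 2.43 ± 0.21, SE; edgeR adjusted p = 1.13e-04). The row lies at chr15:85734983-85806757 on the plus strand (mm10) and has a listed length of 48027 bases, with intronic transcripts among those assembled into it. Of 3 unnamed assembled loci inside it, the 2 tested were higher in PFOA as well. One had 259, 378 and 362 counts in PFOA and 40, 47 and 71 in control, and another had 136, 203 and 123 counts in PFOA and 15, 25 and 14 in control. The third, on the other strand and too low for the test, had 3, 7 and 7 counts in PFOA and 2, 0 and 0 in control.

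Esrrb, an orphan nuclear receptor known from pluripotent stem cells, had 7, 5 and 7 counts in PFOA and 0, 1 and 3 in control, too few for the test. The groups did not overlap, at 3.12 ± 0.71 CPM in PFOA and 0.615 ± 0.689 CPM in control (SD, n = 3 each). Nuclear receptors and lipid regulators of a list of 43 genes had 7 rows, of which 6 were tested, 2 higher and 4 lower in PFOA. Beside Ppara, Nr2e3, known as a photoreceptor nuclear receptor, was 12.4-fold higher, with 13, 35 and 25 counts in PFOA and 0, 4 and 2 in control. The lower rows were those of Esr2, the estrogen receptor beta, at 17.7-fold, of Esrrg, an orphan receptor of oxidative metabolism, at 10.7-fold, of Rorb, an orphan receptor, at 6.06-fold, and of Nr1i3, the xenobiotic receptor CAR, at 5.61-fold. Both nuclear receptor members were higher, and the 4 lower rows of the list are not members.

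TCF/LEF factors carry an HMG box and bind the target genes of Wnt signalling together with beta-catenin. Tcf7l1, which acts mostly as a repressor in this family, had 245, 205 and 257 counts in PFOA and 1826, 995 and 1343 in control. It was 5.70-fold lower, at 116 ± 17.8 CPM in PFOA and 660 ± 209 CPM in control (SD, n = 3 each; log2 fold change -2.51 ± 0.29, SE; edgeR adjusted p = 3.62e-04). Lef1, which acts mostly as an activator, had 42, 59 and 107 counts in PFOA and 204, 159 and 288 in control, 3.06-fold lower (log2 fold change -1.61 ± 0.38 SE from 3 libraries each; adjusted p = 0.0049 by edgeR). Both rows were lower in every PFOA library than in any control library.

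Reads at both loci can come from other genes. Gm15401, an antisense gene inside the Tcf7l1 gene body, had more counts than Tcf7l1 in control, at 397, 145 and 177 in PFOA and 3456, 2367 and 3049 in control (log2 fold change -3.54 ± 0.47 SE from 3 libraries each; adjusted p = 5.75e-04 by edgeR). A second antisense locus there, Gm38320, went the other way, with 47, 31 and 44 counts in PFOA and 11, 13 and 12 in control. Strand use in counting is not given in the sources used here, so reads of Tcf7l1 and Gm15401 cannot be told apart. Gm42449, inside Lef1 on the same strand, had 5, 16 and 11 counts in PFOA and 23, 29 and 43 in control, lower like Lef1.

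The 250 bases before the RefSeq start (GRCm38.p6, the assembly named mm10) of the TCF/LEF pair are shown because both rows were lower, at chr6:72789046-72789295 on the minus strand for Tcf7l1 and chr3:131110073-131110322 on the plus strand for Lef1. The Tcf7l1 row begins 209 bases before its RefSeq start, so most of that window lies inside the row. Capitals here and below mark matches on either strand to any of 6 motifs, which are spelled out beside their counts.
Tcf7l1: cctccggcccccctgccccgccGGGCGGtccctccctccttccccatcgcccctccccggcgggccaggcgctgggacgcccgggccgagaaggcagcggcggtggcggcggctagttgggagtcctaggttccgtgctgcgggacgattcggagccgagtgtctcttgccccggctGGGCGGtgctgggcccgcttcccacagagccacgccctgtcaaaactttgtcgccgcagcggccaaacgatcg
Lef1: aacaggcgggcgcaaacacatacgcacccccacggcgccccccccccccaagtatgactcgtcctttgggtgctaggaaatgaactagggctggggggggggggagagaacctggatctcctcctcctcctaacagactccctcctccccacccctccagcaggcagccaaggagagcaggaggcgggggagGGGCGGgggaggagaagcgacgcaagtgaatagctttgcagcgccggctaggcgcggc
Both windows hold the Sp1/KLF box GGGCGG, in 2 copies for Tcf7l1 and 1 copy for Lef1, and no TCF/LEF core, CTTTGA. Of 32851 mouse promoter windows of this length, 32.7% hold the Sp1/KLF box and 13.8% hold the TCF/LEF core. Of 18 members matched to a promoter, 9 hold the Sp1/KLF box, 5 among the 8 higher and 4 among the 10 lower ones. The TCF/LEF core was found in 1 of the 18. The CCAAT box was found in 5, against 33.8% of all windows, and the E-box CACGTG in 4, against 6.02%. The nuclear receptor element AGGTCA was found in 2, against 4607 of all 32851 windows, and the TATA box TATAAA in 1, against 12.4%. These are matches of letters and no evidence of binding.

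Gata5, a GATA zinc finger factor of heart and gut endoderm, was 5.80-fold higher in PFOA. It had 60, 90 and 58 counts in PFOA and 8, 15 and 14 in control (log2 fold change 2.52 ± 0.38 SE from 3 libraries each; adjusted p = 8.35e-04 by edgeR). Onecut2, a cut-homeodomain factor of liver and upper intestine, was too low for the test, with 6, 22 and 21 counts in PFOA and 3, 1 and 1 in control. The groups did not overlap for either gene, and PFOA replicate 1 was the lowest PFOA library for Onecut2. Barx2, another homeodomain factor, went the other way at a similarly low level, with 2, 5 and 4 counts in PFOA and 12, 16 and 17 in control (log2 fold change -1.96 ± 0.40 SE from 3 libraries each; adjusted p = 0.00276 by edgeR). Tbx3, a T-box factor expressed in embryonic gut and limb, had 1214, 1263 and 1341 counts in PFOA and 543, 454 and 476 in control. Tbx3 was 2.67-fold higher with little spread, at 624 ± 28.1 CPM in PFOA and 233 ± 27.2 CPM in control (SD, n = 3 each; log2 fold change 1.42 ± 0.20, SE; edgeR adjusted p = 6.48e-04). Its antisense neighbour Tbx3os2 was too low for the test, with 1, 11 and 8 counts in PFOA and 0, 1 and 1 in control. From a list of 32 factors tied to position along the gut, 7 had rows, and of the 5 tested 2 were higher and 3 lower. The lower ones included Osr1 at 2.10-fold and a row of Pitx1 at 2.21-fold. Rows of 4 of 11 small intestine markers summed to between 2871 and 5584 CPM in PFOA and between 296 and 718 CPM in control, with Sis, Fabp2 and Alpi higher and Rbp2 lower. The part of these rows in the Gata5 and Onecut2 values was not tested.

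Foxa2, a forkhead pioneer factor of gut endoderm and its secretory cells, was 4.43-fold lower in PFOA. It had 159, 132 and 162 counts in PFOA and 832, 585 and 658 in control, so that the highest PFOA library held far fewer counts than the lowest control library. The log2 fold change was -2.15 ± 0.25 (SE from 3 libraries each; edgeR adjusted p = 3.69e-04). An unnamed non-coding locus 87486 bases away was lower too, with 11, 40 and 42 counts in PFOA and 87, 133 and 110 in control. Id1, a helix-loop-helix protein that lacks a DNA-binding region and holds other bHLH proteins away from DNA, had 1292, 775 and 763 counts in PFOA and 4041, 1948 and 2633 in control, 2.91-fold lower (log2 fold change -1.54 ± 0.38 SE from 3 libraries each; adjusted p = 0.0058 by edgeR). It carries the DNA-binding term in the file although its protein is not known to bind DNA. A list of 27 factors of secretory cell differentiation had these 2 rows and that of Spdef, a goblet cell factor, which was 3.73-fold higher with 2061, 7504 and 5993 counts in PFOA and 1142, 1649 and 1412 in control. Of 22 enteroendocrine factors listed, 4 had rows. Among them, Isl1 was 6.06-fold and Neurog3 2.44-fold lower, and Sox6 was higher as described below. Rows of 5 of 9 enteroendocrine hormone markers summed to between 573 and 916 CPM in PFOA and between 2902 and 3312 CPM in control, with Pyy, Insl5 and Gcg lower and Sct and Sst higher, and their part in these factors' values was not tested.

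The promoter windows of the higher members Ppara (chr15:85735526-85735775, plus strand) and Gata5 (chr2:180334680-180334929, minus strand) and of the lower member Foxa2 (chr2:148046970-148047219, minus strand) are shown because the accounts of nuclear receptors, gut position and secretory factors turn on these 3 genes. The Ppara row begins 793 bases before the RefSeq start used, so its whole window lies inside the row. The Gata5 row begins 20 bases before its RefSeq start.
Ppara: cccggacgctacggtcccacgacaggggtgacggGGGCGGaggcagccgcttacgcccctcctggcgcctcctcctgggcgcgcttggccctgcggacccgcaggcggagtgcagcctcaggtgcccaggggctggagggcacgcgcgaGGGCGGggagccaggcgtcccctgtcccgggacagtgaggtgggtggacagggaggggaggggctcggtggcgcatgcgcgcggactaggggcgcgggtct
Gata5: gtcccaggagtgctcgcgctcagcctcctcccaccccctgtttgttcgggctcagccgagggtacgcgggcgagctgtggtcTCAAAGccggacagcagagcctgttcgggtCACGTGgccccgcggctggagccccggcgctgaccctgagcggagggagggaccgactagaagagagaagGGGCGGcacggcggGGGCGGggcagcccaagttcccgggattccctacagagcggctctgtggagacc
Foxa2: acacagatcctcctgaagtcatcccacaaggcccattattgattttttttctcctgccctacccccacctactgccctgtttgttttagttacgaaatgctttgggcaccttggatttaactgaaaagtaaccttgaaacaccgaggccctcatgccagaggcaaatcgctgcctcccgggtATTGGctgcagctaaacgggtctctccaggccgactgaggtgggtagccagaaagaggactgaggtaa
Ppara and Gata5 are GC-rich here (76.4% and 70.0% G or C, with 27 and 22 CpG pairs) and hold 2 Sp1/KLF boxes each. Gata5 also holds 1 E-box and 1 TCF/LEF core. Foxa2 is less GC-rich (50.8%, with 6 CpG pairs) and holds a single CCAAT box. The nuclear receptor element was found in none of these 3 windows.

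The bHLH-PAS factors annotated to the response to hypoxia went both ways. Arnt2, a dimer partner of this class, was 4.19-fold higher, with 57, 197 and 223 counts in PFOA and 32, 35 and 48 in control (log2 fold change 2.06 ± 0.48 SE from 3 libraries each; adjusted p = 0.00463 by edgeR). A row that merges Hif1a, the oxygen-regulated subunit, with the neighbouring Snapc1 and Snapc1l was 2.45-fold lower, with 2388, 1637 and 1614 counts in PFOA and 3895, 5201 and 5399 in control (log2 fold change -1.29 ± 0.28 SE from 3 libraries each; adjusted p = 0.00329 by edgeR). Reads of Hif1a and Snapc1 cannot be told apart in it. Hif3a, a related subunit with inhibitory forms, was 2.62-fold lower, with 178, 270 and 434 counts in PFOA and 925, 696 and 718 in control (log2 fold change -1.39 ± 0.32 SE from 3 libraries each; adjusted p = 0.00448 by edgeR). The Hif3a row extends over Ppp5c on the same strand, whose reads it may hold. Arnt2 and Ppara (higher) and the rows of Hif1a and Hif3a (lower) are the 4 members annotated to the response to hypoxia. Hey2, a bHLH repressor downstream of Notch, was 2.17-fold higher at a low level, with 47, 34 and 46 counts in PFOA and 20, 17 and 24 in control (log2 fold change 1.11 ± 0.33 SE from 3 libraries each; adjusted p = 0.0114 by edgeR). That call was lost without control replicate 2 (edgeR adjusted p = 0.0583).

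Both immediate early factors with a row were lower. Fosb, an AP-1 subunit induced within minutes of a stimulus, was 3.68-fold lower, with 87, 49 and 37 counts in PFOA and 200, 236 and 238 in control (log2 fold change -1.88 ± 0.40 SE from 3 libraries each; adjusted p = 0.00303 by edgeR). Csrnp1, a nuclear protein of the immediate early class, was 2.23-fold lower, with 176, 212 and 140 counts in PFOA and 504, 344 and 368 in control (log2 fold change -1.16 ± 0.28 SE from 3 libraries each; adjusted p = 0.00532 by edgeR). In GENCODE M21 it is overlapped on the same strand by Cx3cr1, a chemokine receptor gene of macrophages, whose reads it may hold. These 2 were the only genes with a row among 28 of an immediate early and stress list, and the others are not shown to be unchanged. Tsc22d3, the glucocorticoid-induced leucine zipper protein GILZ, was 2.16-fold lower, with 1151, 1015 and 1368 counts in PFOA and 1997, 2911 and 2991 in control (log2 fold change -1.11 ± 0.24 SE from 3 libraries each; adjusted p = 0.0031 by edgeR). Of 22 genes of the circadian clock, Arntl and Rorb had rows, and both were lower, Arntl by 2.53-fold. Times of tissue collection are not given in the labels.

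Zinc finger factors beside Gata5 went both ways. Klf12, a repressor of the Krüppel-like family, was 3.46-fold lower, with 83, 160 and 168 counts in PFOA and 584, 397 and 461 in control (log2 fold change -1.79 ± 0.30 SE from 3 libraries each; adjusted p = 0.00135 by edgeR). Wt1, a factor of kidney and mesothelium, had 34, 45 and 45 counts in PFOA and 1, 18 and 11 in control (log2 fold change 2.08 ± 0.64 SE from 3 libraries each; adjusted p = 0.0143 by edgeR). The Wt1 value depended on the control libraries, at 1.42 without control replicate 1 and 2.78 without control replicate 2, and its call was lost without control replicate 3 (edgeR adjusted p = 0.0599). Zfp708, a KRAB zinc finger protein, had 5, 2 and 4 counts in PFOA and 0, 1 and 0 in control, too few for the test. The ratio was 11.3 with a 95% Clopper-Pearson interval from 1.65 to 488, which covers counting error only. The Zfp708 row overlaps the related Rslcan18 on the same strand.

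Ikzf2, which encodes Helios, an Ikaros-family factor of regulatory and other T cells, was high in a single library. It had 5666 counts in PFOA replicate 1 and 1587 and 1590 in the other PFOA libraries, against 1315, 958 and 1397 in control. The log2 fold change of 1.38 ± 0.56 (SE from 3 libraries each; adjusted p = 0.0394 by edgeR) had the highest adjusted p of the tested members. Without PFOA replicate 1 it was 0.33, and the call was lost (edgeR adjusted p = 0.151). It was also lost when any control library was left out (edgeR adjusted p = 0.0939 to 0.117) and with limma-voom (adjusted p = 0.0834). Gm29112, a transcript inside an Ikzf2 intron on the same strand, was high in the same library, with 187, 41 and 58 counts in PFOA and 28, 30 and 35 in control. The T and natural killer cell rows also summed highest in that library, at 281, 163 and 95.2 CPM in PFOA replicates 1, 2 and 3, and their part in the Ikzf2 value was not tested. Of 49 immune factors listed, Ikzf2, Lef1 and Zbtb16 had rows, and Zbtb16, the factor PLZF of innate-like lymphocytes that is also expressed in other tissues, was 3.49-fold lower.

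Sox6, a SOX factor of the SoxD class known from muscle, cartilage and neural development, was 3.98-fold higher. It had 281, 1053 and 1216 counts in PFOA and 170, 220 and 255 in control (log2 fold change 1.99 ± 0.47 SE from 3 libraries each; adjusted p = 0.0049 by edgeR). PFOA replicate 1 lay nearer to the control libraries than to the other PFOA libraries, and without it the log2 fold change was 2.35. Etv5, an ETS factor induced by receptor tyrosine kinase signalling, had 633, 1080 and 1084 counts in PFOA and 349, 587 and 404 in control. It was 2.12-fold higher with groups that nearly touched (log2 fold change 1.09 ± 0.29 SE from 3 libraries each; adjusted p = 0.00759 by edgeR), and its call was lost without control replicate 3 (edgeR adjusted p = 0.0577). Its neighbour Dgkg, a diacylglycerol kinase gene 28742 bases away, was higher too (log2 fold change 0.99 ± 0.27 SE from 3 libraries each; adjusted p = 0.00893 by edgeR).

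Myrfl, a relative of the myelin regulatory factor Myrf, had the largest fold change of the tested members. It had 70, 30 and 43 counts in PFOA and 0, 2 and 3 in control (log2 fold change 4.81 ± 0.72 SE from 3 libraries each; adjusted p = 8.35e-04 by edgeR), and 4.15 without control replicate 1. L3mbtl4, a malignant brain tumor (MBT) domain protein that reads chromatin, had 13, 16 and 22 counts in PFOA and 67, 35 and 38 in control, 2.70-fold lower (log2 fold change -1.42 ± 0.39 SE from 3 libraries each; adjusted p = 0.0092 by edgeR). An unnamed locus inside L3mbtl4 on the same strand went the other way, with 150, 103 and 78 counts in PFOA and 4, 10 and 5 in control (log2 fold change 4.16 ± 0.51 SE from 3 libraries each; adjusted p = 4.28e-04 by edgeR).

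**Figure D3:**
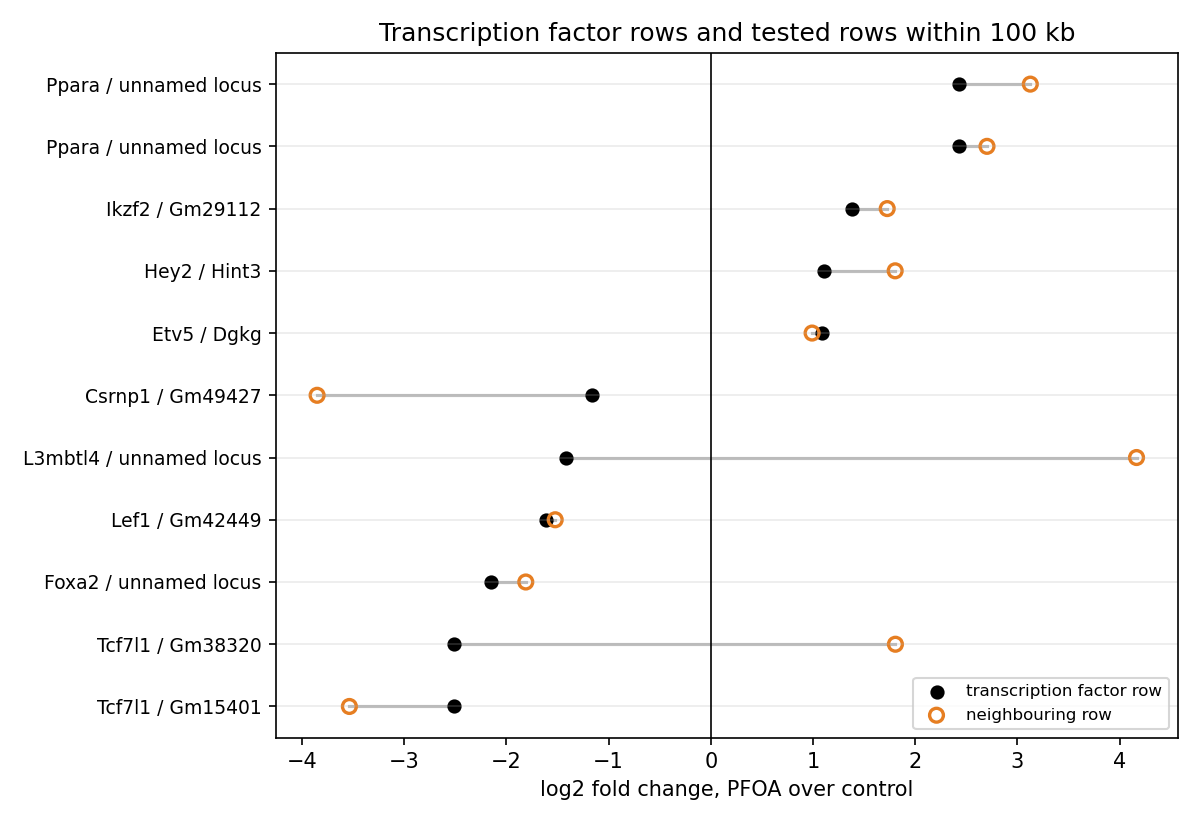
Log2 fold change of PFOA over control (horizontal axis) of transcription factor rows (filled) and of each tested row inside them or within 100 kb (open circles), 1 line per pair. The unnamed locus inside L3mbtl4 and Gm38320 inside Tcf7l1 lie on the other side of 0 from their host row, and the other 9 pairs lie on the same side.

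PFOA replicate 1 differed by over 2-fold from the mean of PFOA replicates 2 and 3 in 6 of the 25 rows, against 33.5% of all rows with a count in PFOA. It was lower for Sox6, Arnt2 and Onecut2 and higher for Ikzf2, Fosb and Myrfl. In the same library the 7 goblet cell rows summed to 148576 CPM, against 287815 and 329472 CPM in PFOA replicates 2 and 3. A low sum was not particular to this library. Control replicate 1 had 143511 CPM, against 251502 and 263122 CPM in control replicates 2 and 3. Muc2 holds 3 of the goblet cell rows, one of them with 64916, 202888 and 237983 counts in PFOA replicates 1, 2 and 3. In the same order, the Fcgbp row had 83053, 76351 and 48341 counts and Tff3 had 6870, 5297 and 4084 counts. The rows of 3 squamous epithelium markers of 11 summed to 507 CPM in PFOA replicate 1, mostly from Sprr1a, against 16.9 and 25.2 CPM in PFOA replicates 2 and 3. Krt13 was at 0 in the 3 PFOA libraries. The part of these differences in the 6 rows was not tested. Without PFOA replicate 1 the log2 fold changes were 2.35 for Sox6, 2.40 for Arnt2, -2.43 for Fosb and 4.31 for Myrfl.

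**Figure D4:**
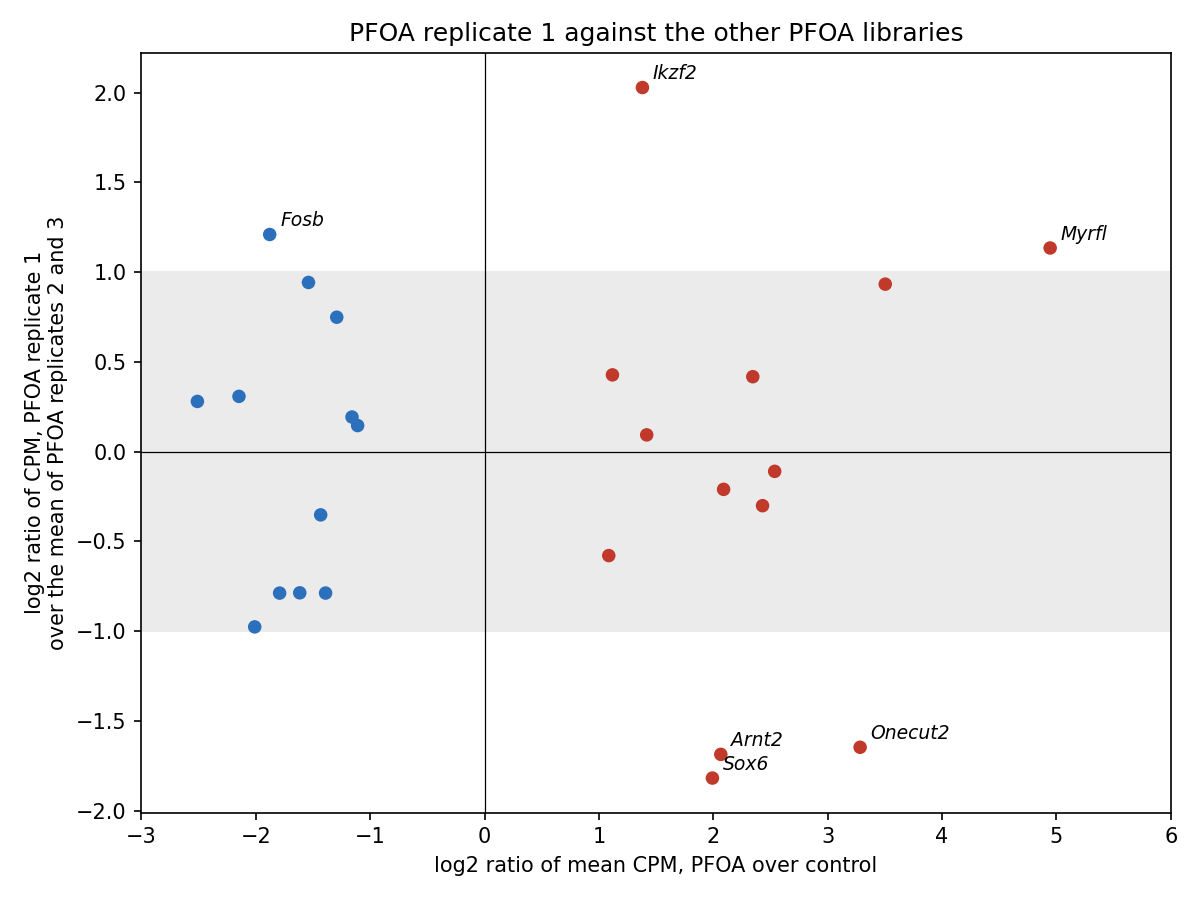
Log2 ratio of CPM in PFOA replicate 1 over the mean of PFOA replicates 2 and 3 (vertical axis) against the log2 ratio of mean CPM of PFOA over control (horizontal axis) for the 25 rows, red where higher and blue where lower in PFOA. The grey band marks differences under 2-fold, and the 6 named rows lie outside it.

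The 25 members are spread over 16 chromosomes, all are labelled protein-coding, and 15 are assembled loci. All their reference identifiers are in GENCODE M21. In that annotation 14 members are overlapped by a gene on the other strand and 9 by another gene on the same strand. By annotated function, 19 members carry positive regulation of RNA polymerase II transcription (10 higher and 9 lower) and 12 carry its negative regulation (6 higher and 6 lower). Neither annotated activators nor repressors lay on one side. Factors of smooth muscle and mesenchyme, 34 in a list, had 4 rows, with Wt1 and Hey2 higher, Osr1 lower as above and Twist2, a bHLH repressor, 3.28-fold lower. Of 21 enteric neuron and glia factors, 2 had rows, among them Etv5, which was higher as above.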

How the data were processed

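Raw read counts were deposited by the authors as a single table, with a count for each gene row in 3 PFOA and 3 control colon libraries, made with a SMARTER kit per the labels' protocols. HISAT2, HTSeq and mm10 are named per the submitters' processing notes. The tool that assembled loci, strand use and the selection of rows were not stated there. Count columns were matched to samples by the descriptions in the labels. The deposited row length in bases was used as a description only.

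Members were found by the ontology term, and their family by symbol. Members and gene lists were chosen with earlier results of these data known. Counts of all rows were tested with edgeR 4.0.16 (R 4.3.3), two-sided: filterByExpr, TMM scaling, glmQLFit and glmQLFTest without covariates, Benjamini-Hochberg adjustment over 1608 rows. CPM are relative to TMM-adjusted listed counts, folds are ratios of mean CPM, and an SE is the log2 fold change over the root of F. The threshold was an adjusted p of 0.05. Counts were also simulated for 1608 rows of this comparison, with most rows unchanged and the same dispersion for each row. Of the rows kept, the test called 88.8% of 98 changed 4-fold, 24.2% of 99 changed 2-fold and 0.587% of 1362 unchanged ones. These shares do not carry over to the deposited table, in which every tested row was called. Replicates of a group were no duplicates (chi-square per degree of freedom at least 22.6). In each group the pairs with replicate 1 had the highest values, at 139 and 122 in control and 286 and 367 in PFOA. All 25 members are described, so that the rule for named genes (largest folds, smallest p per family, fixed lists) left none out, while some other genes of the lists are not reported here. Alternatives were DESeq2 1.42.0, limma-voom (limma 3.58.1), other scalings, filters, the replicate block and each library left out. Promoters are from RefSeq.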

Additional observations from a re-analysis of the deposited data

How the results depend on the processing

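Under 15 alternatives, 0 of 330 values of the 22 tested members changed direction and 11 lost their call, in Ikzf2 (8 of them), Wt1, Hey2 and Etv5. For Ikzf2 the edgeR adjusted p was also 0.0614 with library totals, 0.0511 with a minimum of 1 CPM in 3 libraries and 0.0615 with the replicate block. The members called higher numbered 8 to 10 and those called lower 12 when each library was left out, of 22 or 23 tested. Without control replicate 3, Ikzf2, Wt1 and Etv5 lost their calls. The 8 then called higher included a member that the main fit did not test. Without a filter on low counts, which brought in Esrrb, Onecut2 and Zfp708, 13 members were called higher and 12 lower. Most tested rows of the whole table were called too, but no longer all of them. With each library left out, 721 to 806 of all rows were called higher and 810 to 859 lower, of 1678 to 1711 tested. The fewest were called without control replicate 3, at 721 higher and 810 lower of 1697 tested. Without the filter, 1033 were called higher and 998 lower, of 2033 tested. Replicate numbers did not pair the libraries (correlations of deviations 0.114, -0.0306 and 0.102 for numbers 1, 2 and 3). With the replicate block, 9 members were called higher and 12 lower, against 780 and 799 of all 1608 tested rows. Scaling by library totals shifted the median of all rows by -0.20 on the log2 scale. Over all rows, fitting protein-coding rows only, chosen after seeing the data, gave 516 higher and 525 lower calls among 1050 rows tested, of which the fit of all rows called 516 higher and 534 lower. Leaving out the 20 most abundant rows, likewise chosen after seeing the data, ended no member's call. Depth limits Esrrb, Onecut2 and Zfp708, which were too low for the test, and Barx2, which had at most 17 counts in any library.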
